A study of Mus musculus with 4 samples.

Results

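The genes described here are 32 genes of DNA replication and S phase, followed in single cells of embryonic mouse pancreas. They were taken by name from a list of S phase genes and all 32 were found among the 27998 genes counted in both libraries. The study compared pancreas that lacked OGT, the enzyme that attaches O-GlcNAc to proteins, with control pancreas at embryonic day 15.5. Single-cell libraries were made by the 10x Genomics droplet method, in which each captured transcript is counted once by its molecular identifier (UMI). Knockout cells came from PdxCre;OGTflox/flox;CAG GFP embryos and were sorted on that GFP. Control cells came from OGTflox/flox embryos, given as WT in the genotype label. The design text gives their sort as E-cadherin GFP, whereas the protocol label gives sorting for GFP. Each genotype had 1 library, sequenced in repeat runs that the count tables join.

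Pdx-Cre acts in the pancreatic epithelium, so recombination of the floxed Ogt gene is not expected in leukocytes, mesenchyme or mesothelium. Whether it occurred in such cells here was not tested. The number of embryos pooled is not stated in the labels. Genotype and sort cannot be told apart. With 1 library per genotype no difference was tested, and every interval given is an exact 95% interval that covers counting error only.

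Chromosomes are copied once per cell cycle. In G1, Cdc6 helps to load the MCM helicase onto replication origins. At the start of S phase Cdc45 and the GINS complex turn that helicase on, the primase and polymerases copy both strands, and the sliding clamp PCNA keeps the machinery on the DNA. Nucleotides, new histones and copied DNA methylation have to be supplied at the same pace. Transcription factors of the E2F family switch on many of these genes together as cells leave G1, and in the developing pancreas the transcripts therefore mark progenitors and exocrine cells that still divide, while endocrine cells leave the cell cycle as they form.

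Promoter sequence was a feature that the choice of genes did not use. RefSeq promoters (GRCm38.p6, 250 bases before to 50 bases after the start) were held for 26 of the 32 genes. An E2F octamer, one of TTTCCCGC, TTTCGCGC, TTTGCCGC or TTTGGCGC on either strand, occurred in 11 of these 26 genes (42.3%) and in 2.6% of the 27025 genes with a promoter of this length. The letters CCAAT, the core of the NF-Y motif, occurred on either strand in 19 of 26 (73.1%) against 41.1% of all genes. The CHR element of mitotic genes, searched as TTTGAA or TTCGAA, occurred in 6 of 26 (23.1%) against 21.7%, a share close to that of all genes. A match is a description of the letters and not a mapped binding site. The stretches below are shown because they carry these letters just upstream of the start: capitals mark the E2F octamers in the first 5 and the CCAAT box in Rrm2, which had no E2F octamer in its window.
Mcm6: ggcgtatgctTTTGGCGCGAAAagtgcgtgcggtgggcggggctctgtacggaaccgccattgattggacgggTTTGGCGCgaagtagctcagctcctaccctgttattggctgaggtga
Mcm5: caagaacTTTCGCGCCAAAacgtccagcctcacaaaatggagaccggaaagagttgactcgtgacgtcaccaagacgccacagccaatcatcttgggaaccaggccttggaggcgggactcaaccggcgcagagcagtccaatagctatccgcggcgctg
Dtl: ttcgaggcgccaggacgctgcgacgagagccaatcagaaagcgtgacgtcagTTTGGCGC
Pola1: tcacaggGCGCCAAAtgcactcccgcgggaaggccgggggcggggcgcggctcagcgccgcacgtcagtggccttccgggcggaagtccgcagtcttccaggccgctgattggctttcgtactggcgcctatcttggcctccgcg
Cdca7: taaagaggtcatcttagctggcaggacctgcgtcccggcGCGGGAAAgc
Rrm2: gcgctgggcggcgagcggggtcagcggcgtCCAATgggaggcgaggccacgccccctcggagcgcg
Each is written 5′ to 3′ on its gene's strand. The Mcm6 stretch is chr1:128359706-128359825 (minus strand) and holds 3 matches, a pair of which overlap. The Mcm5 stretch is chr8:75109349-75109508 (plus) with 2 overlapping matches, and the Dtl stretch is chr1:191575545-191575604 (minus). The Pola1 stretch is chrX:93632156-93632300 (minus), the Cdca7 stretch is chr2:72476109-72476157 (plus) and the Rrm2 stretch is chr12:24708174-24708239 (plus). None of the 6 overlaps an annotated exon of GENCODE M21. In that annotation the 32 genes lie on 16 chromosomes, so they do not form a cluster in the genome.

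The control library held 941 barcodes and 11973979 UMIs, and the knockout library held 617 and 11064540, with 0 barcodes in common. After filtering, 921 control cells (median 10867 UMIs) and 553 knockout cells (median 16168 UMIs) were grouped without any cell cycle gene, which left 14 combinations of class and library with at least 30 cells. The labels call all of them pancreatic epithelium, but leukocyte groups made up 87.4% of control and 14.3% of knockout cells, and an Epcam or Cdh1 UMI was seen in 42.1% and 92.2%. An Xist UMI was seen in 22.8% of control and 99.1% of knockout cells. A UMI of a Y-linked gene (Ddx3y, Eif2s3y, Kdm5d or Uty) was seen in 53.0% of control cells and in 0 of 553 knockout cells, which allows a share of up to 0.542%, so the sex of the cells cannot be told apart from genotype either. Class names are marker-based, and clusters that did not meet the marker rule are named only by a leading gene. Levels are given as CPM, the UMIs of a gene per 1000000 UMIs of the same cells. Control acinar-like cells held 36.1 CPM of Ogt and knockout ones 38.2. The levels were 87.6 (63.9 to 117.3) and 62.8 (47.1 to 81.9) in trunk/ductal-like cells, and 106.0 (65.6 to 162.0) and 29.5 (18.3 to 45.1) in endocrine-like cells, each of these last from 21 UMIs. A tag at the transcript's end can lie outside the deleted part, so these levels do not check the deletion.

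The summed level of the 32 genes split the cell classes into a low and a high band. It was lowest in endocrine-like cells of the knockout, at 1062 CPM (987 to 1140, 42 cells), and highest in the Ccl4-high leukocytes of the control, at 2522 CPM (2421 to 2626, 87 cells). Low levels were also found in Hmox1-high macrophage-like cells (1228), MHC class II-high leukocytes (1255), Lair1-high leukocytes (1301) and control trunk/ductal-like cells (1562). A second band ran from Lyve1-high macrophage-like cells (2107, 2050 to 2164) through control acinar-like (2151), Cym-high duct-like (2239), control neutrophil-like (2276), knockout acinar-like (2311), mesenchyme-like (2388), knockout trunk/ductal-like (2430.1) and mesothelium-like cells (2509). In that order the intervals of neighbours overlapped except at 3 steps: between endocrine-like and Hmox1-high cells, between Lair1-high and control trunk/ductal-like cells, and between control trunk/ductal-like and Lyve1-high cells. Control endocrine-like cells were too few for the list (23 cells) and stood at 818 CPM (697 to 954).

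**Figure D1:**
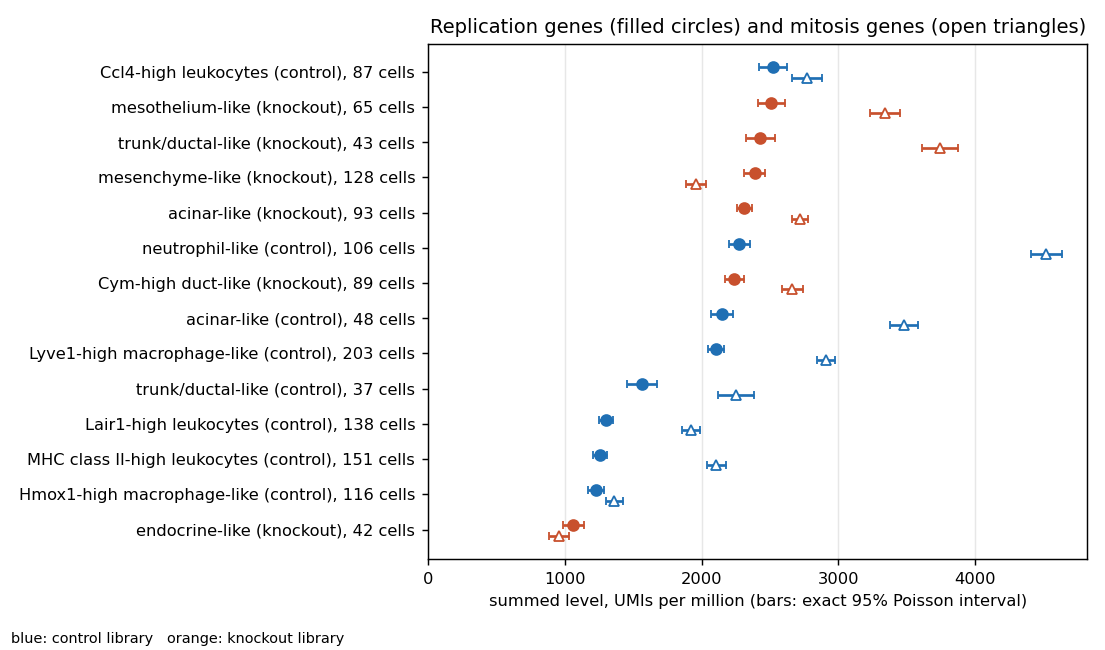
Summed level of the 32 replication genes (filled circles) and of 44 mitosis genes (open triangles) in CPM for each cell class of at least 30 cells, with exact 95% Poisson intervals, blue for control and orange for knockout. The replication genes run from 1062 in endocrine-like cells to 2522 in Ccl4-high leukocytes, and mesenchyme-like cells show the mitosis genes well below the replication genes.

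The genes of the replicative helicase did not all share 1 pattern over the classes. Mcm6, 1 of the 6 subunits of the MCM ring, ran from 40.8 CPM in endocrine-like cells (27.3 to 58.6) over a median of 114.6 to 159.5 in mesenchyme-like cells (140.2 to 180.6). Mcm3 ran from 15.5 in endocrine-like cells over 65.4 to 140.4 in Ccl4-high leukocytes, and Mcm4 from 12.7 in endocrine-like cells over 43.8 to 81.0 in mesenchyme-like cells. These subunits work as 1 ring, yet Mcm2 did not share their low point: it stood at 68.9 CPM in knockout endocrine-like cells, close to its median of 68.7, and was lowest in control trunk/ductal-like cells (37.0, 22.3 to 57.8). Mcm5 (46.4 to 134.0) was again lowest in endocrine-like cells and highest in Ccl4-high leukocytes, whereas Mcm7 (47.9 to 135.7) was lowest in Hmox1-high macrophage-like cells and highest in knockout acinar-like cells. Of the helicase activators, Cdc45 was highest in neutrophil-like cells (35.1) and Gins2, a subunit of the GINS complex, in Lyve1-high macrophage-like cells (89.2, 77.8 to 101.8). The licensing factor gene Cdc6 ran from 4.22 CPM (3 UMIs) in endocrine-like cells to 23.5 in control acinar-like cells.

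Genes of DNA synthesis varied less evenly. Pcna ran from 43.6 CPM in endocrine-like cells (29.6 to 61.9) over a median of 122 to 215.4 in Ccl4-high leukocytes (186.6 to 247.3). The clamp gene thus had its 3 highest values in leukocytes, with 189.3 in Lyve1-high macrophage-like and 172.1 in neutrophil-like cells. Prim1, the catalytic primase subunit, had its extremes in other classes, with 11.8 in Hmox1-high macrophage-like cells and 54.8 in Cym-high duct-like cells. Rfc2, part of the clamp loader, had the narrowest range of all 32 genes, from 77.7 to 160.5 CPM (2.07-fold). Fen1, the nuclease that trims Okazaki fragments, was lowest in control trunk/ductal-like cells (17.5, 8.01 to 33.3) and below its median of 56.6 in mesenchyme-like cells (37.3). Rpa2, a subunit of the single-strand binding protein, was highest in mesothelium-like (104.7) and mesenchyme-like cells (101.0), whereas Pola1 (DNA polymerase alpha, 9.72 to 24.6) and Dscc1 (part of an alternative clamp loader, 8.57 to 21.4) were highest in Ccl4-high leukocytes.

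Genes that supply nucleotides were low in some leukocyte classes and in endocrine-like and control trunk/ductal-like cells. Tyms, thymidylate synthase, ran from 58.9 CPM in Hmox1-high macrophage-like cells over 130.6 to 202.2 in knockout acinar-like cells (186.2 to 219.1). Rrm2, the regulated subunit of ribonucleotide reductase, was 40.8 in both endocrine-like and Hmox1-high cells and 173.6 in neutrophil-like cells (152.4 to 196.9). Its partner Rrm1, the large subunit, ranged only 2.55-fold, from 43.95 to 111.9. Summed over these 3 genes, the level was 143.6 CPM in Hmox1-high macrophage-like cells, 153.3 in MHC class II-high leukocytes, 155.97 in Lair1-high leukocytes and 172.9 in knockout endocrine-like cells. Control trunk/ductal-like cells stood at 196.7 (160.2 to 239.0), an interval that overlapped that of the endocrine-like cells (143.7 to 206.3). The summed level was 303.1 in Lyve1-high macrophage-like cells, 391.1 in control acinar-like and 421.1 in knockout acinar-like cells.

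Of the 6 genes for copying chromatin, 5 were highest outside the leukocytes. Nasp, a histone chaperone, ran from 55.6 CPM in MHC class II-high leukocytes over 107.2 to 189.3 in mesothelium-like cells. Hells, a chromatin remodeller needed for DNA methylation, peaked in Cym-high duct-like cells (83.1, 70.2 to 97.6), and Cdca7, its partner, in mesothelium-like cells (65.3). Uhrf1, which brings the maintenance methyltransferase to new DNA, and Chaf1b, of the histone chaperone CAF-1, peaked in mesothelium-like (81.7) and knockout trunk/ductal-like cells (51.1). Slbp, which binds histone mRNA, was the exception, with its highest level in neutrophil-like cells (208.7, 185.4 to 234.1) followed by mesenchyme-like cells (199.98).

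Among fork and repair genes, Clspn, which carries the checkpoint signal from stalled forks, was at 1 UMI (1.41 CPM, 0.0356 to 7.83) in endocrine-like cells and at 28.7 CPM in neutrophil-like cells, the widest range of the 32 genes. Tipin, of the fork protection complex, ran from 51.8 to 139.5 CPM and Ung, which removes uracil from DNA, up to 76.9 in mesothelium-like cells. Blm, a helicase of recombination repair, was highest in the trunk/ductal-like cells of both libraries (34.9 in knockout and 23.4 in control, against a median of 10.3). Exo1, an exonuclease of mismatch repair, held 24.4 CPM in knockout trunk/ductal-like cells and 3.89 (2 UMIs) in the control. Dtl, which directs the ubiquitin ligase that destroys Cdt1 in S phase, was highest in mesenchyme-like cells (85.5), and E2f8, a repressor of the E2F programme, in neutrophil-like cells (30.8) with 2.81 (2 UMIs) in endocrine-like cells.

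**Figure D2:**
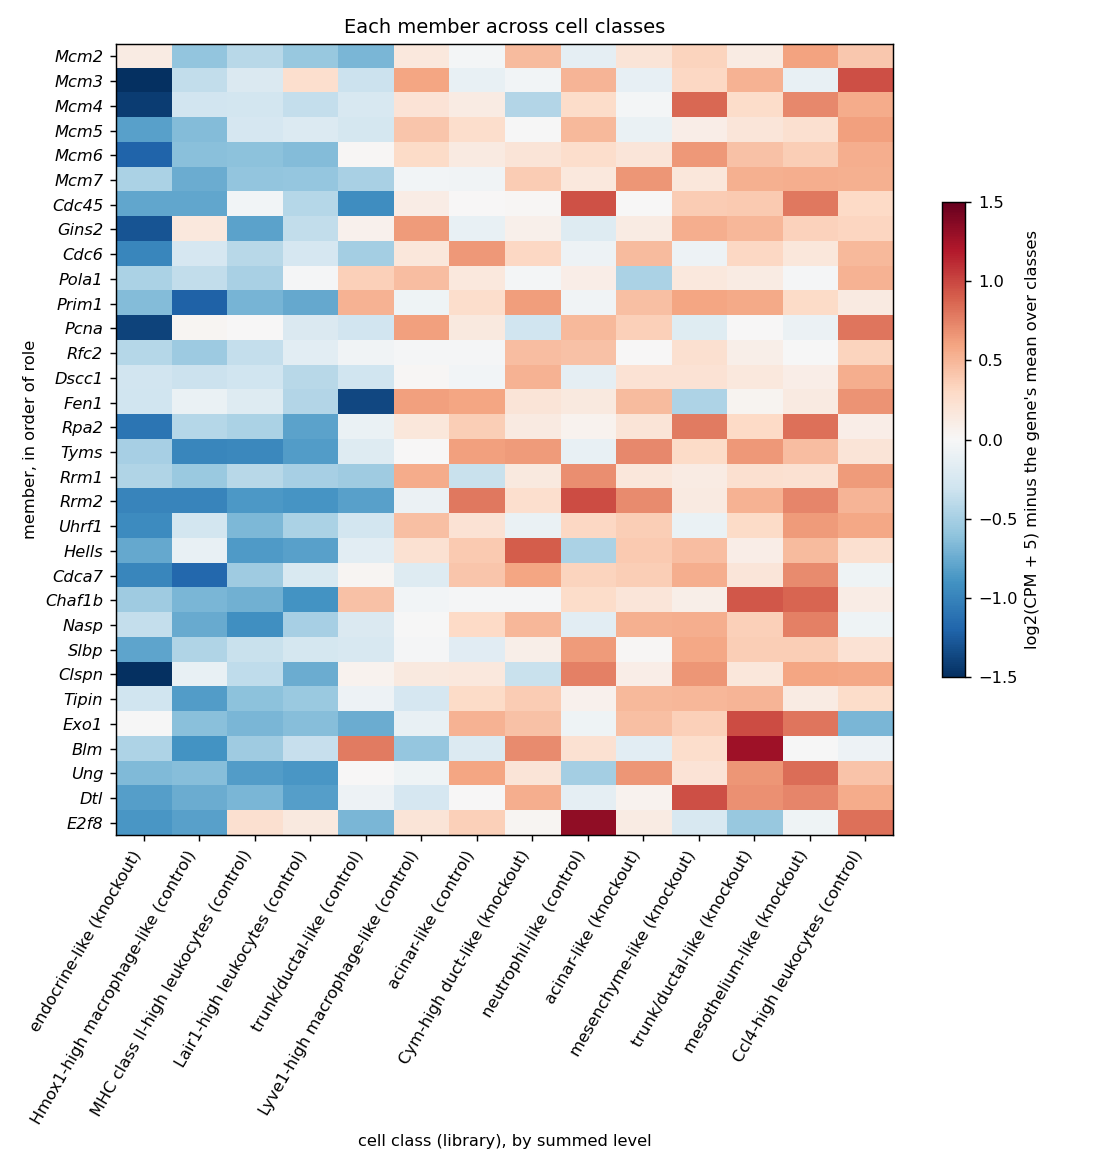
Level of each of the 32 genes (rows, in order of role) in the 14 class and library combinations (columns, from the lowest to the highest summed level), as log2(CPM + 5) minus the gene's mean over the columns. The endocrine-like column is the bluest, with Mcm2 and Exo1 near their means, and E2f8, Cdc45 and Rrm2 stand out in the neutrophil-like column.

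As a description of how closely the genes moved together, Mcm6 followed the sum of the other 31 genes most closely over the 14 combinations (Pearson r of 0.954), ahead of Mcm7 (0.901) and Rrm2 (0.898). E2f8 (0.447), Blm (0.483) and Fen1 (0.5) followed it least. Combinations of 1 library share its depth and sort, so these values describe the classes and are not evidence from independent samples. Outside the fixed lists, the genes whose level was most like the sum, among 8133 genes, were Sae1 (0.921), Lmnb1 (0.910) and Nucks1 (0.909), followed by Suv39h2, Fignl1, Pbk, Bora, Haus5, Tubb5, Lsm2, Cenpn and Srsf2 (down to 0.864).

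Counted per cell, the UMIs of the 32 genes varied within every class, and whether this exceeds counting error was not tested. Cells with at least 5000 UMIs were thinned to 5000, and a cell with at least 10 UMIs of the 32 genes was counted as replication-high. Such cells made up 4.76% of knockout endocrine-like cells (2 of 42, 0.582 to 16.2%), a cell type known to leave the cell cycle, and 11.1% of the 18 deep enough in the control. Among leukocytes they made up 11.4% of MHC class II-high, 14.3% of Hmox1-high, 17.1% of Lair1-high, 33.7% of neutrophil-like, 35.98% of Lyve1-high (29.1 to 43.3%) and 49.3% of Ccl4-high cells (37.2 to 61.4%). In the knockout library the shares were 38.5% in mesothelium-like, 44.5% in mesenchyme-like and 47.2% in Cym-high duct-like cells. Without thinning, 90.5% of knockout endocrine-like cells (median 16608 UMIs) and 64.04% of Lyve1-high macrophage-like cells (median 10298 UMIs) passed the same limit, so only thinned shares are compared.

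The spread was wide in some classes and narrower in knockout endocrine-like cells (median 5 UMIs, upper 10% of cells from 8). Neutrophil-like and Lyve1-high cells had medians of 6 and 7 UMIs per thinned cell, the upper 10% of cells began at 23.6 and 20, and the highest cells held 45 and 38. Knockout acinar-like cells had a median of 10 with the upper 10% from 20. The limit cuts through a continuous range: 24 of 93 knockout acinar-like, 14 of 46 control acinar-like and 43 of 128 mesenchyme-like cells lay within 2 UMIs of it.

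**Figure D3:**
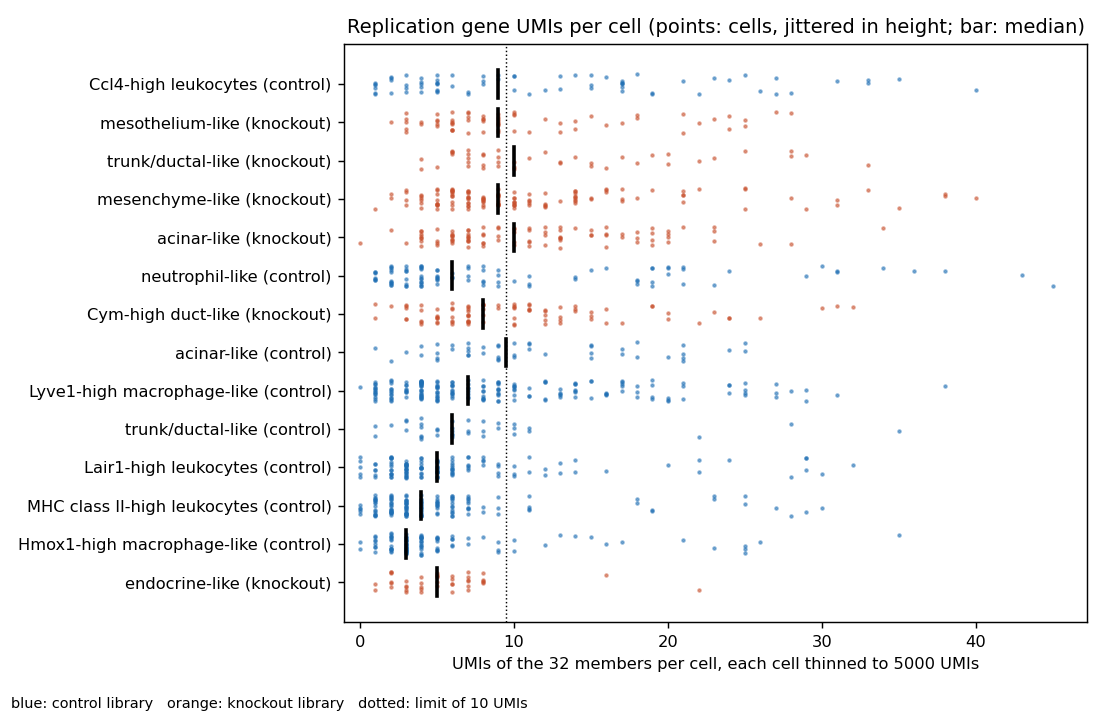
UMIs of the 32 genes in each cell after thinning to 5000 UMIs (points, jittered in height), with the class median as a black bar and the limit of 10 UMIs dotted, blue for control and orange for knockout. Most endocrine-like cells lie below the limit with a median of 5, whereas neutrophil-like cells reach 45.

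Macrophage subtypes were compared with the other leukocytes of the control library. Lyve1-high macrophage-like cells, of the resident type marked by Lyve1, Pf4, Folr2 and Mrc1, held 2107 CPM against 1624, a ratio of 1.30 (1.26 to 1.34). In them 6 of 32 genes were at least 1.5-fold higher and 0 lower, where 14.5% of all 10695 genes with at least 20 UMIs were higher and 13% lower. The 6 were Gins2 (1.88), Hells (1.70), Exo1 (1.65), Fen1 (1.59), Pola1 (1.56) and Uhrf1 (1.54). Of the other replication genes 10 of 60 were higher and 2 lower, led by the thymidine kinase gene Tk1 (2.17), and of the mitosis genes 4 of 44 were higher and 1 lower.

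Hmox1-high macrophage-like cells, led by the iron exporter gene Slc40a1, the heme oxygenase gene Hmox1 and C1qa, held 1228 CPM against 1825, a ratio of 0.673 (0.638 to 0.709). There 16 of 32 genes were at least 1.5-fold lower and 0 higher, against 17.9% lower and 12.8% higher of all genes. E2f8 (0.198, 0.0533 to 0.520), Cdc45 (0.381), Cdca7 (0.417), Prim1 (0.443) and Rrm2 (0.477) were among them. Mitosis genes went further down, with 42 of 44 lower and a summed ratio of 0.485 (0.462 to 0.509). The split between these 2 macrophage groups depended on the clustering. Under a stricter filter (1000 genes, 5% mitochondrial UMIs) the matching group held 152 cells, 74 of them shared, and its ratio was 1.21 (1.17 to 1.26), while Lyve1-high cells gave 1.10. Under that filter the replication-high share was 32.1% in the group matched to Hmox1-high cells, up from 14.3%, and 30.2% in Lyve1-high cells. At the lower resolution both formed 1 group of 317 cells with a ratio of 1.06 (1.03 to 1.10).

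The other leukocytes fell on both sides. In MHC class II-high leukocytes, led by Cd74 and H2-Aa, 15 of 32 genes were at least 1.5-fold lower and 0 higher (19.8% and 9.62% of all genes), with a ratio of 0.674 (0.645 to 0.704). In Lair1-high leukocytes 13 were lower and 0 higher (14.3% and 5% of all genes), with a ratio of 0.705. Ccl4-high leukocytes had 20 of 32 genes higher and 1 lower, Exo1 (0.663, 0.175 to 1.79), against 8.91% higher and 15.7% lower of all genes. Their ratio of 1.51 (1.45 to 1.58) included all 6 Mcm genes (1.502 to 1.84), Dtl (2.24), Ung (2.10) and Dscc1 (2.01), while 3 of 44 mitosis genes were higher. Hemoglobin genes led this cluster, and their part in the result was not tested.

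Neutrophil-like cells, marked by S100a8, S100a9 and Ngp, had 11 of 32 genes higher and 0 lower, against 12.4% and 22.8% of all genes. Rrm2 (2.71, 2.32 to 3.16), E2f8 (2.71), Cdc45 (2.51), Blm (2.14) and Clspn (2.05) had the largest ratios, and the Mcm genes were all between the limits. Mitosis genes stood higher still, with 40 of 44 at least 1.5-fold higher and a summed level of 4519 CPM against 2304. Of the G1/S regulators 6 of 15 were higher, led by E2f2 (4.55) and Ccna2 (3.05), and Skp2 (0.591) was lower.

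Endocrine-like cells stood lowest in the knockout library: 1062 CPM against 2352 in its other cells, a ratio of 0.451 (0.419 to 0.485). Of the 32 genes 29 were at least 1.5-fold lower and 0 higher, against 29.3% lower and 25.4% higher of all 12860 genes. Clspn (0.0775, 0.00195 to 0.437), Mcm3 (0.196, 0.0972 to 0.352) and Mcm4 (0.239, 0.109 to 0.458) had the lowest ratios, and Mcm2, Pola1 and Fen1 were the 3 between the limits. All 44 mitosis genes were lower (summed ratio 0.338, 0.313 to 0.365), and so were 37 of 60 other replication genes and 9 of 15 G1/S regulators. The cell cycle inhibitor gene Cdkn1a stood at 769 CPM in these cells. The other classes of the knockout library with at least 30 cells held 29.8 to 208.5. Cdkn1c, another inhibitor gene, stood at 454.1 CPM in endocrine-like cells, above knockout acinar-like cells (393.5) and below the remaining such classes (703.5 to 5287). Rb1, which restrains E2F, was the 1 G1/S gene that was higher (4.96, 2.77 to 8.52). The part of these genes in the low level was not tested.

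Mesenchyme-like cells held about as many transcripts of the 32 genes as the other knockout cells but fewer mitotic ones. Their summed level was 2388 CPM against 2241 in the other knockout cells (1.07, 1.03 to 1.10), with 3 genes higher, Mcm4 (1.81), Clspn (1.72) and Dtl (1.63), and 1 lower, Fen1 (0.564), against 20.6% higher and 26.4% lower of all genes. The 60 other replication genes were slightly below the other cells, at 2626 against 2830 CPM (0.928, 0.898 to 0.959), with 7 higher and 7 lower. Mitosis genes were lower in 21 of 44 cases and higher in 1, Hjurp (1.71), with a summed level of 1959 against 2829 CPM. Cdc20 (0.464), Cenpf (0.465) and Nek2 (0.404) were among the lowest, and Mki67, a general proliferation marker, stood at 32.8 CPM. Of 15 G1/S genes 5 were higher, among them Ccne1 (2.87, 2.29 to 3.57), Skp2 (2.59, 2.06 to 3.25), E2f1 (2.08) and Ccne2 (1.78). The 4 lower ones were Rb1 (0.338), E2f3 (0.602), Rbl1 (0.655) and Ccna2, the cyclin of later S and G2 phase (0.631). Cdkn1c, an inhibitor of cyclin-dependent kinases, stood at 5287 CPM (5173 to 5402) here, against 1262 in mesothelium-like and 743.8 in knockout trunk/ductal-like cells.

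Mesothelium-like cells (markers Wt1 and Upk3b) held 2509 CPM against 2235 (1.12, 1.08 to 1.17). There 5 genes were higher and 0 lower (18% and 24.8% of all genes): Chaf1b (1.64), Cdc45 (1.63), Clspn (1.55), Mcm4 (1.54) and Rpa2 (1.52). Unlike in mesenchyme-like cells, 12 of 44 mitosis genes were higher and 0 lower, led by Cenpf (2.37) and Cdc25c (1.98).

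Epithelial classes were set against the other cells of their own library in the same way. Control acinar-like cells had 11 of 32 genes at least 1.5-fold higher and 0 lower (21.8% and 37.6% of all 11636 genes), with Exo1 (2.71), Ung (2.16), Tyms (2.03) and Cdc6 (1.98) foremost. Knockout acinar-like cells had 0 higher and 2 lower, Pola1 (0.644) and Blm (0.544), against 5.66% and 47.8% of all genes. The other cells of the control library were mostly leukocytes, so the 2 counts have unlike references. In control and knockout acinar-like cells the median log2 ratio was 0.20 and -0.02 over the 32 genes, and -0.18 and -0.49 over all genes. Control trunk/ductal-like cells had 3 higher and 9 lower (30.9% and 26.8% of all genes), with Fen1 (0.282) and Cdc45 (0.353) lowest. Knockout trunk/ductal-like cells had 3 higher and 1 lower (13.9% and 25% of all genes), and in both libraries the higher genes included Chaf1b (1.78 and 1.70) and Blm. Blm rested on 12 UMIs in the control class (interval of the ratio 1.49 to 5.51) and on 30 in the knockout class (ratio 2.47). Cym-high duct-like cells had 2 higher, Hells (1.65) and Blm (1.51), and 2 lower, Mcm4 (0.552) and Clspn (0.587), against 18.7% and 22.4% of all genes.

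The balance between replication and mitosis transcripts therefore differed from class to class. The ratio of the summed UMIs was 1.22 (1.16 to 1.28) in mesenchyme-like cells and 1.11 (1.00 to 1.23) in knockout endocrine-like cells, and 0.504 (0.482 to 0.526) in control neutrophil-like cells. Between them lay Ccl4-high leukocytes (0.911), Hmox1-high macrophage-like cells (0.901), Cym-high duct-like cells (0.841), mesothelium-like cells (0.752) and Lyve1-high macrophage-like cells (0.724). Per thinned cell, 31.3% of mesenchyme-like cells had at least 10 replication UMIs with fewer than 10 mitosis UMIs, 13.3% had both and 9.38% mitosis only. In neutrophil-like cells these shares were 10.5%, 23.2% and 31.6%. The ratio has no absolute meaning, since it depends on which genes are on each list.

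**Figure D4:**
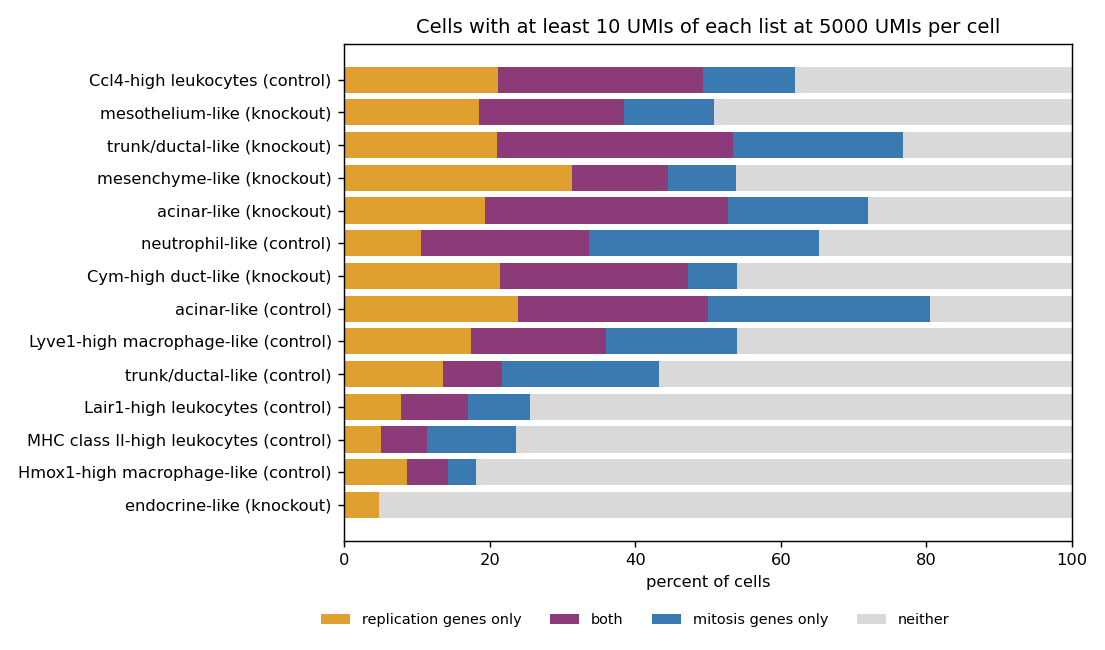
Percent of cells, thinned to 5000 UMIs, with at least 10 UMIs of the replication genes only, of both lists, of the mitosis genes only, or of neither, by cell class. Mesenchyme-like cells have the longest replication-only bar (31.3%) and endocrine-like cells are almost all in neither group.

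Across genotypes, 2 epithelial classes had at least 30 cells in both libraries. In trunk/ductal-like cells, which hold the bipotent progenitors and duct cells, the 32 genes summed to 1562 CPM in control (1456 to 1674, 37 cells) and 2430.1 in knockout (2327 to 2537, 43 cells), a ratio of 1.56 (1.43 to 1.69). Of 32 genes 29 had the 20 UMIs required, and 15 of them were at least 1.5-fold higher and 0 lower, where 13.6% of all 7241 genes were higher and 12.7% lower. Their median log2 ratio was 0.60, against 0.04 over all genes. The helicase, synthesis, nucleotide, chromatin, fork and S phase regulator groups all held genes past the limit.

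Within the helicase, Mcm7 was at 58.4 CPM in control cells and 123.2 in knockout cells (2.11, 1.39 to 3.28), Mcm2 at 37.0 and 68.6 (1.85) and Mcm3 at 54.5 and 101.1 (1.85). Mcm4 (1.49), Mcm5 (1.39), Mcm6 (1.35) and Gins2 (1.37) were between the limits. All 3 nucleotide genes were past it: Rrm2 at 46.7 and 125.5 (2.69, 1.71 to 4.37), Tyms at 105.2 and 192.9 (1.83, 1.34 to 2.54) and Rrm1 at 44.8 and 80.2 (1.79). In the synthesis group Fen1 stood at 17.5 and 54.6 (3.12, 1.51 to 7.23), but Pcna (1.23), Rfc2 (1.11), Prim1 (1.03) and Pola1 (0.814) were not past the limit.

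Ratios of the rarer genes were loose. Cdc45 (3.78, 1.11 to 19.9) and Exo1 (6.27, 1.53 to 55.1) rested on 3 and 2 control UMIs, and Cdc6, Dscc1 and E2f8 had too few UMIs to be counted. The intervals of Uhrf1 (1.53, 0.912 to 2.68) and Ung (1.65, 0.985 to 2.86) reached below 1. Dtl (1.79), Slbp (1.56), Tipin (1.52) and Nasp (1.52) completed the 15.

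Other cell cycle lists moved in the same direction in this class. Of the other replication genes 15 of 48 were higher and 2 lower, with Timeless (3.68, 1.54 to 10.7), the partner of Tipin, and the mismatch repair gene Msh6 (3.58) highest and Gins1 (0.410, 0.172 to 0.941) lowest. Of the G1/S regulators 4 of 10 were higher and 0 lower: E2f1 (2.22), Ccne1 (2.22), Skp2 (2.09) and Ccna2 (1.67). Of the mitosis genes 26 of 40 were higher and 0 lower, and Tpx2, a spindle factor, stood at 21.4 and 77.9 CPM (3.64, 1.91 to 7.63). The ratio of replication to mitosis UMIs was 0.694 (0.634 to 0.760) in control and 0.650 (0.615 to 0.687) in knockout, so their intervals overlapped. Among cells of 10000 to 30000 UMIs it was 0.940 (0.836 to 1.06) and 0.669 (0.626 to 0.715), and there the intervals did not overlap. Replication-high cells made up 21.6% (8 of 37, 9.83 to 38.2%) and 53.5% (23 of 43, 37.7 to 68.8%) of these cells.

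Depth and other cells' transcripts differed together with genotype here. Median UMIs were 12913 in control and 18287 in knockout trunk/ductal-like cells. Macrophage markers summed to 2091 CPM in the control cells and 170.8 in the knockout cells, with 11 of the 11 measured markers at least 1.5-fold lower in knockout and Cd163 at 0 in both. Mesenchyme markers summed to 736.1 CPM in control and 1414 in knockout cells, with 6 of 7 measured markers higher in knockout. Acinar markers summed to 4864 and 6896 CPM with 4 of 9 higher, and trunk/ductal markers to 8367 and 7258 with 2 of 10 lower. The part of these differences in the ratio was not tested. Among cells of 10000 to 30000 UMIs, whose medians were 14838 and 18287, the ratio was 1.40 (1.27 to 1.54) with 9 genes higher and 0 lower, against 14.5% and 13.1% of all genes in these cells. Joining the Cym-high duct-like cells, which occurred only in the knockout library, to this class gave 1.47 (1.37 to 1.59).

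In acinar-like cells, the enzyme-producing exocrine cells, the same genes were nearly level: 2151 CPM in control (2071 to 2233, 48 cells) and 2311 in knockout (2256 to 2366, 93 cells), a ratio of 1.07 (1.03 to 1.12). Of 32 genes, 1 was at least 1.5-fold higher and 1 lower, against 14.9% and 12.9% of all 9526 genes. The higher one was Mcm7, at 80.7 CPM in control and 135.7 in knockout (1.68, 1.35 to 2.11), which was also past the limit in trunk/ductal-like cells. The lower one was Pola1, at 18.03 and 9.89 (0.548, 0.306 to 0.993). The 5 other Mcm genes ran from 0.765 (Mcm5) to 1.19 (Mcm2), Rrm1 stood at 1.45 (1.10 to 1.93), Tyms at 1.08 and Rrm2 at 0.944.

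Acinar-like cells of the 2 libraries did not share a cluster: 47 of the 48 control cells lay in cluster 12, led by Prss1 and Try10, and all 93 knockout cells in cluster 6, led by Cpa1 and Serpina6. Median UMIs were 24226 and 31391, and macrophage markers summed to 2120 and 212.4 CPM, with 13 of 13 measured markers lower in knockout. Mesenchyme markers summed to 124.6 CPM in control and 749.1 in knockout cells, with 11 of 11 measured markers higher, and neutrophil markers to 38.4 and 275.8 with 5 of 6 higher. Trunk/ductal markers were higher in 5 of 10 cases (925.7 and 1380 CPM) and acinar markers lower in 3 of 10 (54617 and 39359 CPM). The part of these differences in the ratio was not tested. Among cells of 10000 to 30000 UMIs (23 control and 36 knockout, medians 17123 and 21980) the direction turned, with 2373 CPM in control and 2076 in knockout, a ratio of 0.875 (0.808 to 0.947), 2 genes higher and 5 lower, against 13.5% and 18% of all genes in these cells. This window narrowed the range of depth but left the knockout cells deeper.

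Mitosis genes in acinar-like cells went the other way from those in trunk/ductal-like cells. Of 44, 10 were at least 1.5-fold lower in knockout and 0 higher, with a median log2 ratio of -0.33 and a summed level of 2716 CPM in knockout against 3480 in control. Mki67 stood at 82.3 in control and 44.7 in knockout (0.543, 0.417 to 0.708) and Dlgap5, a spindle gene, at 19.6 and 8.86 (0.452). The ratio of replication to mitosis UMIs was 0.618 (0.589 to 0.648) in control and 0.851 (0.823 to 0.879) in knockout, and 0.849 (0.781 to 0.923) and 1.08 (1.00 to 1.16) among cells of 10000 to 30000 UMIs. Of the other replication genes 6 of 58 were higher, led by Orc2 (2.31) and Rfc3 (1.68), and 2 lower, Atad2 (0.570) and Pold1 (0.631). Replication-high cells made up 50% in control (34.9 to 65.1%) and 52.7% in knockout (42.1 to 63.1%), and 56.5% (34.5 to 76.8%) and 41.7% (25.5 to 59.2%) among cells of 10000 to 30000 UMIs. The difference between the 2 classes in their response was not tested.

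**Figure D5:**
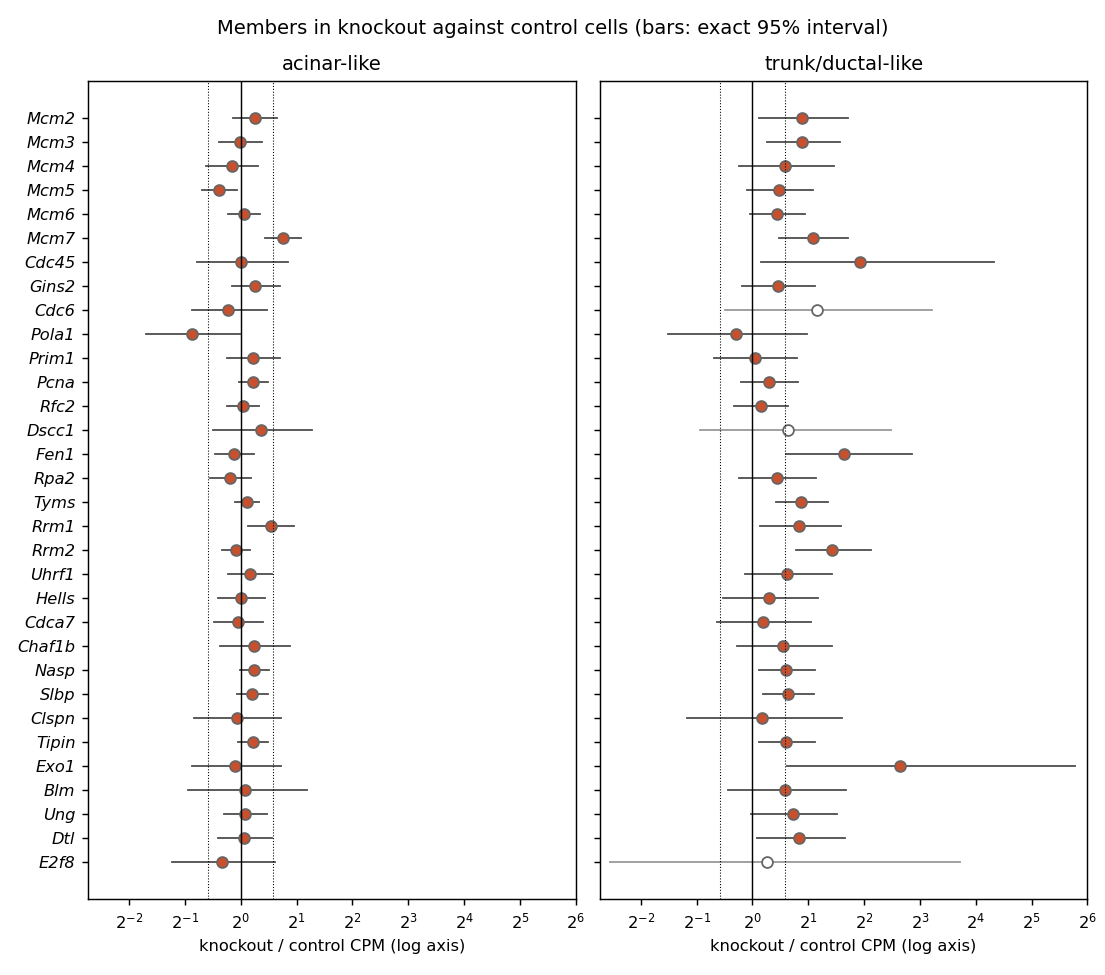
Ratio of knockout to control CPM for each of the 32 genes in acinar-like (left) and trunk/ductal-like cells (right), on a log axis with exact 95% intervals; dotted lines mark 1.5-fold either way and open symbols are genes with under 20 UMIs. In the left panel Mcm7 alone lies beyond the right limit and Pola1 beyond the left, and in the right panel 15 genes with enough UMIs lie beyond the right limit.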

How the data were processed

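The deposited tables hold whole-number UMI counts per gene and cell, 1 table a genotype. The authors used Cell Ranger 2.0.0, Seurat 2.0, DESeq2 1.14.1 and mm10, per the submitters' processing notes. The chemistry was not given in the sources used here, nor was the number of embryos. Samples of 1 genotype are repeat sequencing runs per the labels, so each genotype is 1 library, and the runs could not be separated. GENCODE M21 gave symbols to 27645 of 27998 identifiers.

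The 32 genes, the lists and the tests were chosen with earlier results of these data known. Barcodes needed 500 genes and no more than 10% mitochondrial UMIs. Scrublet marked 4 of 925 control and 8 of 561 knockout cells as doublets, which were removed. Cells were clustered with scanpy 1.11.5 (2000 variable genes, 30 components, 15 neighbours) and leidenalg 0.10.2 (resolution 1), leaving out 520 cell cycle genes, the 32 included. Of 17 clusters, those with at least 5 detected markers took the name of the best marker list unless their leading genes pointed elsewhere, and 15 groups resulted.

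Levels are UMIs summed over a class per 1000000 UMIs of the same cells (CPM). Intervals are exact at 95%: Poisson for levels, conditional for ratios, binomial for shares, and they cover counting error only. The interval code was tested on simulated counts, and the thinning code on the real cells against the expected sum. A gene was called at 1.5-fold, given at least 20 UMIs over both sides, and nothing was tested. All 32 genes were named; of each other list, names come from the 4 largest ratios in each direction past 1.5-fold, and the 12 like genes have the highest Pearson correlation of log2(CPM + 10) among genes with at least 200 UMIs. Genes named outside this rule, beside the cell type markers, were Ogt, Epcam, Cdh1, Xist, 4 Y-linked genes, Cdkn1c, Cdkn1a and Mki67. Alternatives covered filters, clustering, scaling with TMM (edgeR 4.0.16) and median-of-ratios (DESeq2 1.42.0) factors, limits and depth.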

Additional observations from a re-analysis of the deposited data

How the results depend on the processing

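Of 248 values over 29 results, 180 kept their direction within their interval, 66 moved and 2 reversed. The cause was not tested. The 180 include values that could not change because the setting left the same cells, so their number overstates stability. At resolution 0.5 the acinar-like, trunk/ductal-like, knockout endocrine-like, mesenchyme-like and mesothelium-like groups held the same cells as in the main clustering. The limit on macrophage marker UMIs removed no acinar-like cell. No paired analysis was possible because the runs of a genotype are joined in 1 table and each genotype is 1 library, and for the same reason no replicate could be left out. Limits to cells of 10000 to 30000 UMIs, to cells with few macrophage marker UMIs, and the joined Cym-high cells were chosen after seeing the data. Alternatives that redraw the groups compare partly different cells, and depth leaves genes under 20 UMIs uncounted.

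The summed ratio of Lyve1-high macrophage-like cells moved from 1.30 to 1.10 under the stricter filter (1000 genes, 5% mitochondrial UMIs), to 1.06 at resolution 0.5, to 1.19 with TMM and to 1.20 with median-of-ratios factors. That of Hmox1-high macrophage-like cells reversed from 0.673 to 1.21 with the stricter filter, moved to 0.547 with cell cycle genes in the clustering, and gave no value at resolution 0.5. The endocrine-like ratio went from 0.451 to 0.381 (stricter filter), 0.401 (TMM) and 0.404 (median of ratios). The mesenchyme-like ratio went from 1.07 to 1.03 (stricter filter), 1.01 (enzyme, hormone, mitochondrial and ribosomal genes out of the totals) and 1.18 (10000 to 30000 UMIs).

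Between genotypes, a 2-fold limit left 0 acinar-like genes higher, 0 lower, and 5 trunk/ductal-like genes higher. The share of all genes past 2-fold was not counted, so these counts have no reference. Among cells of 10000 to 30000 UMIs the acinar-like ratio reversed to 0.875 with 2 genes higher and 5 lower, and the trunk/ductal-like ratio moved to 1.40 with 9 higher. The replication to mitosis ratio there was 0.849 in control acinar-like, 1.08 in knockout acinar-like, 0.940 in control trunk/ductal-like and 0.669 in knockout trunk/ductal-like cells. Without the 5 most abundant mitosis genes it was 1.06 and 1.48 in control and knockout acinar-like cells and 1.22 and 1.06 in trunk/ductal-like cells. With the whole mitosis list it was 0.650 in knockout trunk/ductal-like cells and 0.763 when the Cym-high cells were joined to them. The share of replication-high cells, at 5 UMIs, at 15 UMIs and when thinned to 3000 UMIs, was 89.1%, 34.8% and 22.9% in control acinar-like, 88.2%, 29.0% and 26.9% in knockout acinar-like, 67.6%, 8.11% and 8.11% in control trunk/ductal-like and 95.3%, 34.9% and 23.3% in knockout trunk/ductal-like cells; among cells of 10000 to 30000 UMIs it was 56.5% in control and 41.7% in knockout acinar-like cells. The limit on macrophage marker UMIs removed 1 of 37 control trunk/ductal-like cells and no other trunk/ductal-like or acinar-like cell, so it left the difference in these markers in place.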

Other observations

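Classes with fewer than 30 cells were not compared as classes, though their cells are among the other cells of their library. In the knockout library, lymphoid-like cells, marked by Cd7, Ltb and Igll1, held 2701 CPM of the 32 genes (2561 to 2847, 27 cells). This value was above that of each larger class, but its interval overlapped those of Ccl4-high leukocytes (2421 to 2626) and mesothelium-like cells (2413 to 2607). In the lymphoid-like cells Mcm2 stood at 132.4 CPM and Mcm3 at 148.0. Of these cells, 51.9% (31.95 to 71.3%) had at least 10 UMIs of the 32 genes when thinned to 5000 UMIs. Mast-like cells, marked by Cpa3 and Cma1, held 2574 CPM (13 cells), with Rfc2 at 305.0, and Nkx2-5-positive cells held 2504 (14 cells), with Dtl at 114.4 and Cdca7 at 114.4. The 23 neutrophil-like cells of the knockout library held 2260 CPM (2110 to 2417), beside 2276 in the control library, while their mitosis genes summed to 3059 CPM beside 4519.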
